A study of Mus musculus with 6 samples.

Results

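Glutamate and GABA uptake genes of astroglia, 7 genes by which astrocytes clear, recycle or sense transmitters, were followed in single cells of the adult mouse brain. The 7 genes, of 32285 in the count tables, were chosen by symbol, with earlier results of these data known. They were picked for their levels in astroglia, for the difference of those levels between types of astroglia, and for a lower Slc1a3 in replicate 2 of 1 group. Those values are therefore given as descriptions without a test.

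Cells came from the cortex and subventricular zone (SVZ, the neurogenic layer lining the lateral ventricle) of mice 8 to 12 weeks old, and were sorted by antibodies into endothelial cells and neural stem and progenitor cells. There were 3 groups of 2 libraries each. Cx43GlastiKO (GlastiKO) and Cx43ECiKO (ECiKO, whose libraries are titled Vecad) are named as knockouts of connexin 43, the gap junction protein encoded by Gja1, in cells that express Glast and in endothelial cells; the control mice carried the floxed allele (Cx43flox/flox). The labels used here do not give the Cre lines, how the knockouts were induced, or whether animals were pooled. Glast is the protein made by Slc1a3, and progenitor cells were sorted as CD31-Glast+CD45-, endothelial cells as CD31+Glast-CD45-, so the Slc1a3 product was itself a sorting marker.

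Glutamate released at synapses is taken up by astrocytes through Slc1a2 (GLT-1) and Slc1a3 (GLAST), and Glul (glutamine synthetase) converts it to glutamine, which is returned to neurons. GABA is taken up by Slc6a11 (GAT-3) and broken down by Abat (GABA transaminase), and glycine is taken up by Slc6a9 (GlyT1). Gabra2, a subunit of the GABA-A receptor, senses GABA and does not transport it. The group thus holds 4 transporters, 2 enzymes and 1 receptor subunit.

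The promoters of Slc1a3 and Slc6a11 are shown because these genes carried the group difference and the difference between types of astroglia described below. Each is the 250 bases before the RefSeq start (GRCm38.p6), at chr15:8710808-8711057 on the minus strand and chr6:114130991-114131240 on the plus strand. Capitals mark matches to TATAAA or GGGCGG on either strand.
Slc1a3: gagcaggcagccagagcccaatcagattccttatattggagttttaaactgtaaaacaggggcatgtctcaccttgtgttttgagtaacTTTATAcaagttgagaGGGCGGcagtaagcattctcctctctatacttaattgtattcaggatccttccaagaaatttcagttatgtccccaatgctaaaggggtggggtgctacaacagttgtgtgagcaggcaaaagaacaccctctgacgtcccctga
Slc6a11: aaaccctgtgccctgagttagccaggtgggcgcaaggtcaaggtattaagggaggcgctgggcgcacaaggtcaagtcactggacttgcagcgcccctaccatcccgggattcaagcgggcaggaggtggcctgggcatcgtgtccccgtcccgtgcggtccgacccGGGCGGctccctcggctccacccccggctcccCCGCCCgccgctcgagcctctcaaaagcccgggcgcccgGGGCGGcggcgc
The Slc1a3 window held 1 match to TATAAA and 1 to GGGCGG, and the Slc6a11 window 3 to GGGCGG; the GC content was 44.8% and 71.2%. Over all 32851 such windows, 12.4% held TATAAA and 32.7% held GGGCGG. Neither window held TAATTA or ACAATG on either strand, which 4.84% and 10.7% of windows held. In the mm10 annotation, Slc1a3 spans chr15:8634124-8710764 (minus strand) and Slc6a11 chr6:114131241-114249952 (plus strand).

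After filtering, 491 and 1191 cells remained in GlastiKO replicates 1 and 2, 397 and 2503 in ECiKO, and 754 and 938 in control, from 1735247 to 14859187 UMIs (unique molecules) per library. The libraries numbered 1 were almost wholly endothelial and held 7, 2 and 2 astroglial cells in GlastiKO, ECiKO and control; the libraries numbered 2 held 408, 153 and 409. Astroglia could therefore be compared in 1 library per group, without a replicate check, and the intervals given are 95% exact intervals that cover counting error only. Any pair of libraries shared at most 1 cell barcode. Gja1 itself differed little between GlastiKO and control replicate 2, with ratios of 0.975 (0.913 to 1.04) in Agt-type and 0.911 (0.849 to 0.978) in Lhx2-type astroglia; a 3′ count checks a deletion only if it lies in the deleted part, which the labels do not give.

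Astroglia were split by marker genes that are not among the 7. Agt-type cells held Agt, Itih3, Zic1 and Irx genes, and Lhx2-type cells held the telencephalic regulators Lhx2 and Emx2. Some markers of 1 type were also present in the other. Zic1 was at 160, 141 and 112 UMIs per 1000000 in Agt-type cells of GlastiKO, ECiKO and control replicate 2. In Lhx2-type cells it was at 26.8, 13.3 and 78.1. There were 88, 36 and 222 Agt-type cells and 182, 28 and 56 Lhx2-type cells in replicate 2 of GlastiKO, ECiKO and control. All 12 astroglial markers were detected in every one of these 6 sums. Lhx2 was at 0 in Agt-type cells of all 3 libraries. The gates used these markers and left out cells that passed for another class. The marker values of this paragraph therefore follow in part from the gates and are no separate check of the names. Of 15 endothelial markers, 0 to 6 had any UMI, with at most 24.3 CPM in all (UMIs per 1000000 UMIs of the cells summed). Oligodendrocyte markers summed to 911, 535 and 533 CPM in Agt-type and to 366, 186 and 269 CPM in Lhx2-type cells of GlastiKO, ECiKO and control; their part in the results was not tested.

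The name astroglial fitted some of the 7 genes and not others. Slc1a2 stood at 6979 to 10112 CPM in astroglia, against 50.2 to 121 CPM in oligodendrocytes and 0 to 50.2 CPM in endothelial cells. Slc6a11 stood at 1378 to 2353 CPM in astroglia, against 3.92 to 10.5 CPM in oligodendrocytes. Gabra2 stood at 63.9 to 148 CPM in astroglia, against 0.654 to 1.84 CPM in oligodendrocytes and 0 in choroid plexus cells. For all members except Glul, the levels of astroglia, all types pooled, and of the other named classes did not overlap over sums of at least 20 cells. For Slc6a9 this did not hold in Lhx2-type cells alone, as given below. The members were chosen for their levels in astroglia, and the share of all genes with such a gap is not given here. Slc1a3 was likewise high in astroglia (1975 to 3010 CPM), against at most 89.7 CPM in any other named class with at least 20 cells in a library. Cells assigned to no class held 435 and 407 CPM in GlastiKO and ECiKO replicate 2 (30 and 262 cells).

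Glul and Slc6a9 were also abundant in oligodendrocytes, the myelin-forming cells. Glul stood at 1660 to 2603 CPM in astroglia, against 2466 to 2852 CPM in oligodendrocytes and 652 to 1086 CPM in endothelial cells. Slc6a9 stood at 187 to 284 CPM in astroglia, against 131 to 147 CPM in oligodendrocytes and at most 4.72 CPM in endothelial cells. In Lhx2-type astroglia alone Slc6a9 was at 46.3 to 94.5 CPM, below the oligodendrocytes. Abat was at 175 to 215 CPM in astroglia, against 106 to 116 CPM in choroid plexus cells and 30.9 to 35.5 CPM in oligodendrocytes. In endothelial cells Abat and Gabra2 had 2 UMIs each, and Slc6a9 and Slc6a11 3 each, over all 6 libraries.

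**Figure D1:**
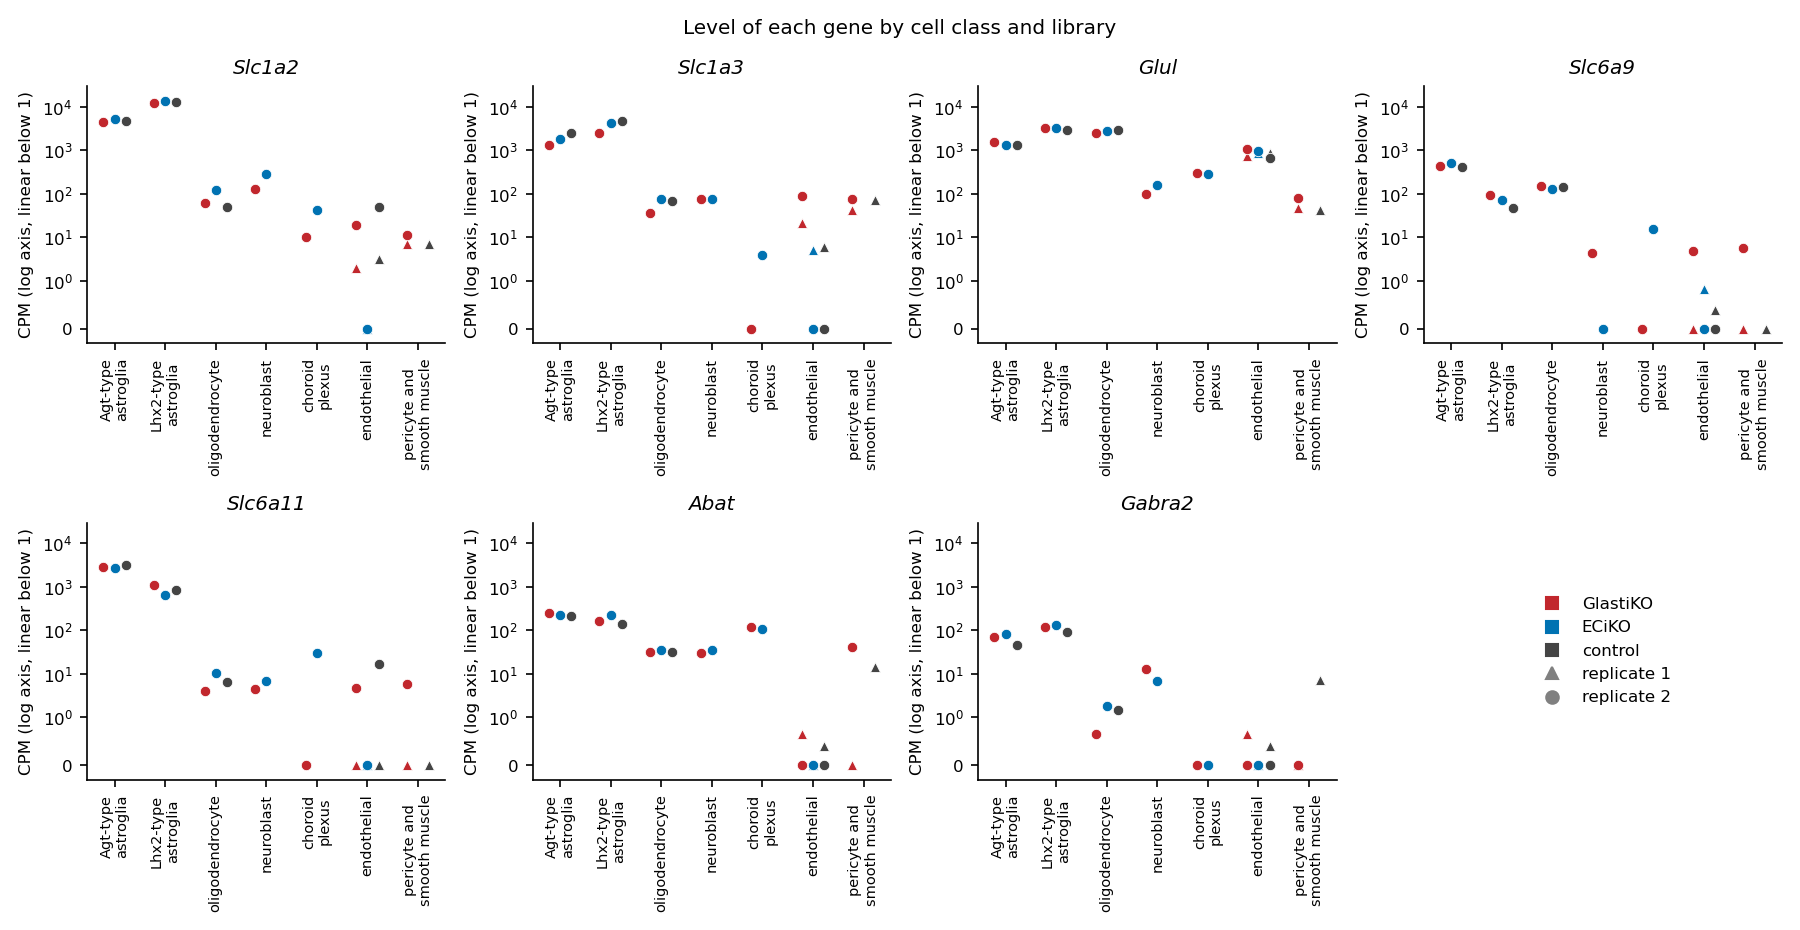
Level of each gene in CPM (log axis, linear below 1) by cell class; each point is the sum over the cells of 1 library with at least 20 cells of that class, coloured by group. Slc1a2, Slc1a3, Slc6a11 and Gabra2 are highest in the astroglial types, whereas Glul and Slc6a9 are also high in oligodendrocytes.

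The 2 types of astroglia divided the genes into those of glutamate handling, lower in Agt-type cells, and those of GABA and glycine uptake, higher there. Slc1a2 was at 4397, 5223 and 4809 CPM in Agt-type cells of GlastiKO, ECiKO and control replicate 2, against 12267, 13678 and 13063 CPM in Lhx2-type cells. Glul was at 1580, 1313 and 1288 CPM in Agt-type cells, against 3209, 3169 and 2991 CPM in Lhx2-type cells. The Agt-type over Lhx2-type ratio was 0.358, 0.382 and 0.368 for Slc1a2 and 0.492, 0.414 and 0.431 for Glul in GlastiKO, ECiKO and control. Slc1a3 values are given with the groups below; its ratio was 0.533, 0.411 and 0.543. In each library the counting intervals of the 2 types did not overlap for these 3 genes.

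The transporters of GABA and glycine ran the other way. Slc6a11 was at 2819, 2647 and 3160 CPM in Agt-type cells, against 1075, 658 and 827 CPM in Lhx2-type cells of GlastiKO, ECiKO and control. Slc6a9 was at 422, 505 and 409 CPM in Agt-type cells, against 94.5, 73.1 and 46.3 CPM in Lhx2-type cells. The ratios were 2.62, 4.02 and 3.82 for Slc6a11 and 4.46, 6.91 and 8.83 for Slc6a9; the last rests on 16 UMIs in control Lhx2-type cells, with an interval of 5.38 to 15.6. Both were higher in Agt-type cells of all 3 libraries.

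Abat, which degrades GABA, differed less, at 249, 222 and 207 CPM in Agt-type cells against 167, 219 and 139 CPM in Lhx2-type cells. Its ratio was 1.498 in GlastiKO (1.19 to 1.89), 1.01 in ECiKO (0.563 to 1.79) and 1.49 in control (1.09 to 2.08). Gabra2 was at 71.0, 80.8 and 46.2 CPM in Agt-type cells, against 116, 133 and 89.7 CPM in Lhx2-type cells, with ratios of 0.610, 0.608 and 0.515. The ECiKO interval for Gabra2 (0.232 to 1.44) included 1, and it rests on 8 UMIs in Agt-type cells. With cells thinned to 1000 UMIs the ratios in GlastiKO, ECiKO and control were 1.62, 0.482 and 0.981 for Abat and 0.931, 1.07 and 3.34 for Gabra2, so that for both genes the libraries then lay on either side of 1.

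Among genes with at least 100 UMIs in either type, 2 of 7 members were at least 1.5 times higher in Agt-type cells in GlastiKO and 4 were lower by that factor, where 5.40% and 18.3% of all 2057 genes were. In ECiKO 1 of 4 members was higher and 3 were lower, against 11.4% and 29.3% of 123 genes. In control 2 of 6 were higher and 3 were lower, against 15.0% and 10.6% of 1764 genes. These contrasts chose the members, so the counts are descriptions.

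**Figure D2:**
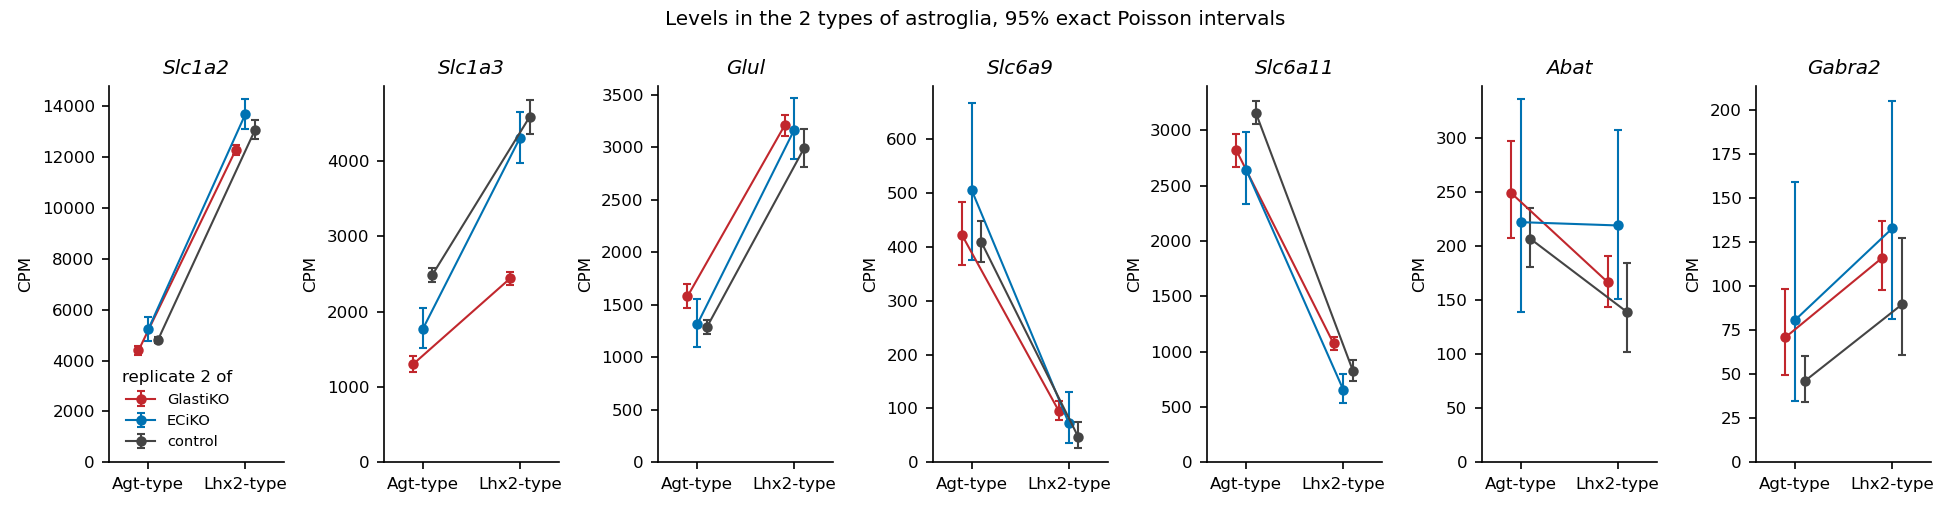
CPM of each gene in Agt-type (left) and Lhx2-type (right) astroglia of replicate 2 of each group; points are sums over cells, bars 95% exact Poisson intervals, and lines join the types of 1 library. Slc1a2, Slc1a3 and Glul are lower in Agt-type cells and Slc6a9 and Slc6a11 higher, in all 3 libraries, and the red GlastiKO line lies lowest for Slc1a3.

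Slc1a3 was lower in both types in GlastiKO replicate 2. It stood at 1302 CPM in Agt-type cells of GlastiKO replicate 2, 1768 CPM in ECiKO replicate 2 and 2491 CPM in control replicate 2. In Lhx2-type cells it stood at 2442, 4305 and 4585 CPM. The GlastiKO over control ratio was 0.523 (0.479 to 0.570) in Agt-type and 0.533 (0.501 to 0.567) in Lhx2-type cells. In ECiKO it was 0.710 (0.606 to 0.827) in Agt-type cells, whose median depth was 1186 UMIs against 4575 in control, and 0.939 (0.856 to 1.03) in Lhx2-type cells.

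The lower level showed in the distribution over single cells, with medians and quartiles taken over cells with at least 1000 UMIs. The median Slc1a3 per 10000 UMIs of a cell was 9.33 in GlastiKO Agt-type cells (quartiles 5.77 and 17.5), against 20.4 in control (11.3 and 34.6). In Lhx2-type cells it was 22.9 (13.8 and 32.3), against 45.3 in control (35.0 and 55.1), so that the upper quartile of GlastiKO lay below the lower quartile of control. All 182 GlastiKO Lhx2-type cells still held at least 1 Slc1a3 UMI.

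**Figure D3:**
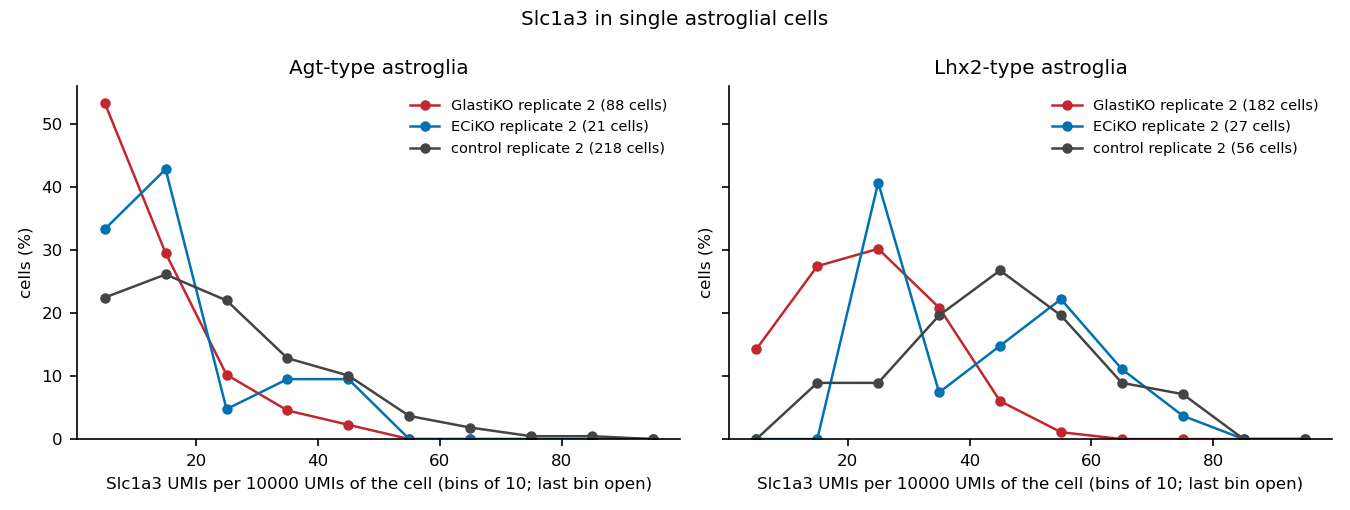
Share of cells (percent) by Slc1a3 UMIs per 10000 UMIs of the cell, in bins of 10, for Agt-type (left) and Lhx2-type (right) astroglia with at least 1000 UMIs in replicate 2 of each group. The GlastiKO curve lies to the left of control in both types, with medians over these cells of 9.33 against 20.4 and 22.9 against 45.3.

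The lower Slc1a3 in GlastiKO replicate 2 was part of the choice of members. Its place among all genes is therefore a description, from 1 library per group. Slc1a3 had the lowest ratio of 2038 genes with at least 100 UMIs in Lhx2-type cells and the 9th lowest of 1756 in Agt-type cells. Of 1539 genes compared in both types, 2 (0.130%), Slc1a3 and Scrg1, were lower by at least 1.5 times in both. In oligodendrocytes, at a far lower level, Slc1a3 was at 36.2 CPM in GlastiKO replicate 2, against 66.6 CPM in control replicate 2, a ratio of 0.543 (0.473 to 0.623). The oligodendrocyte level was 1.83% of the astroglial level in GlastiKO replicate 2. The Slc1a3 product was a sorting marker, and the part of the sort in the difference was not tested.

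Of the members other than Slc1a3 with enough UMIs, only Slc6a9 passed a factor of 1.5 between groups, in Lhx2-type cells of GlastiKO. In Agt-type cells 1 of 6 members with enough UMIs was lower by 1.5 times in GlastiKO and 0 were higher, where 3.99% and 1.77% of all genes were. In Lhx2-type cells 1 of 7 was lower and 1 higher, where 1.08% and 5.99% of all genes were. The lower gene was Slc1a3 in both, and the higher was Slc6a9 at 2.04 (1.2 to 3.70), from 113 UMIs in GlastiKO and 16 in control. In ECiKO 0 of 6 members passed in Agt-type cells (7.53% of all genes higher, 12.2% lower) and 0 of 4 in Lhx2-type cells (1.09% and 3.53%). Slc1a3 in ECiKO Agt-type cells passed that factor with cells thinned to 1000 UMIs (0.562) or limited to 10% mitochondrial UMIs (0.602).

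Slc1a2, the other glutamate transporter, was at 0.914 (0.870 to 0.961) of control in GlastiKO Agt-type cells and 0.939 (0.908 to 0.971) in Lhx2-type cells. Glul was at 1.23 (1.12 to 1.34) and 1.07 (1.00 to 1.15). Slc6a11 was at 0.892 (0.838 to 0.95) in Agt-type cells but 1.30 (1.14 to 1.48) in Lhx2-type cells. Abat was at 1.21 and 1.2, and Gabra2 at 1.54 and 1.30, all 4 with intervals that included 1.

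**Figure D4:**
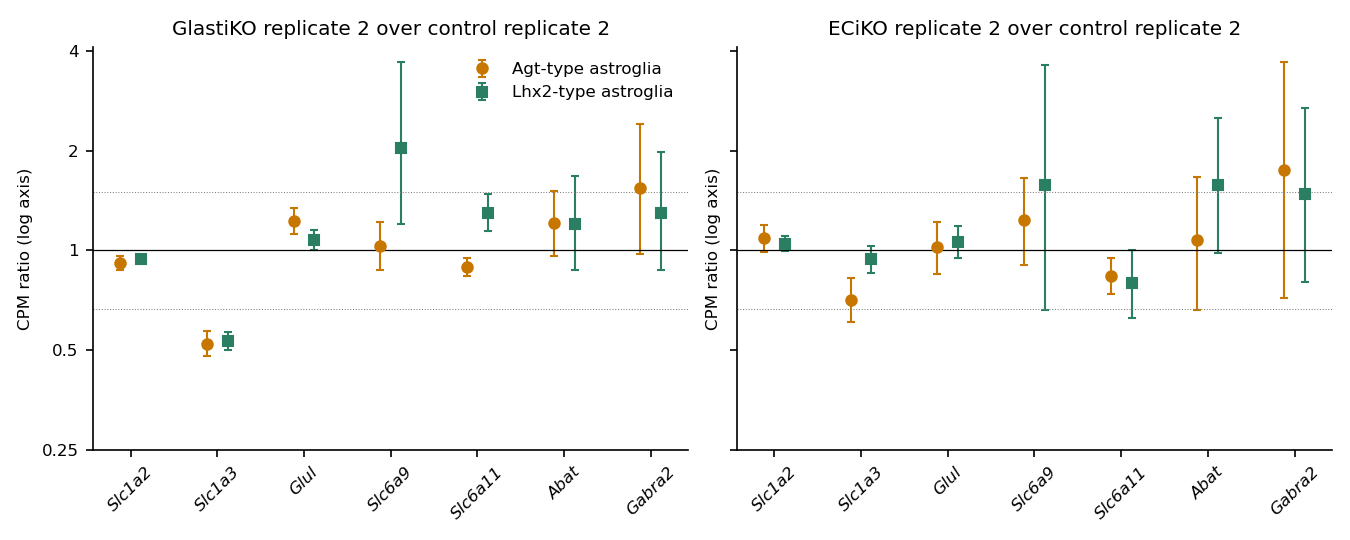
CPM ratio (log axis) of GlastiKO replicate 2 (left) and ECiKO replicate 2 (right) over control replicate 2, in Agt-type (circles) and Lhx2-type (squares) astroglia; bars are 95% exact intervals of counting error, and dotted lines mark a ratio of 1.5 in either direction. Slc1a3 is at 0.523 and 0.533 in GlastiKO, below every other member.

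Over all astroglia pooled, the ratios of GlastiKO to control differed from those within types. Agt-type cells made up 21.6% of astroglia in GlastiKO, 23.5% in ECiKO and 54.3% in control, and Lhx2-type cells 44.6%, 18.3% and 13.7%. The remaining 33.8%, 58.2% and 32.0% were of neither type, and held Slc1a2 at 10661, 6602 and 7888 CPM. The pooled ratio was 1.45 for Slc1a2, 1.57 for Glul, 0.620 for Slc6a11 and 0.658 for Slc6a9, whereas within types Slc1a2 was 0.914 and 0.939. For Slc1a3 it was 0.683. These shares come from 1 sorted library per group, and their part in the pooled ratios was not tested.

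Of 59 other genes of glutamate, GABA and glycine handling, 15 in Agt-type and 18 in Lhx2-type cells had enough UMIs in GlastiKO against control, with median ratios of 1.03 and 0.946 (0.983 and 1.04 over all genes). Slc38a3, a glutamine transporter, was higher in GlastiKO Agt-type cells (436 CPM, against 248 CPM in control, ratio 1.76), and no other passed 1.5 in GlastiKO. Over all genes, 1.77% were higher and 3.99% lower in Agt-type cells, and 5.99% and 1.08% in Lhx2-type cells. In ECiKO 15 and 12 genes had enough UMIs, and 1 passed in each type, where 12.2% and 3.53% of all genes were lower and 7.53% and 1.09% higher. Slc7a11, the cystine and glutamate exchanger, was lower at 384 CPM in Agt-type cells, against 642 CPM in control, and at 392 CPM in Lhx2-type cells, against 743 CPM.

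Between types, 2 of 19 such genes were higher and 6 lower in Agt-type cells in GlastiKO, and 2 and 5 of 15 in control, where 5.40% and 18.3% of all genes were in GlastiKO and 15.0% and 10.6% in control. Gria1, an AMPA receptor subunit, was at 434 CPM in Agt-type cells, against 19.2 CPM in Lhx2-type cells, in GlastiKO, and at 505 against 2.89 CPM (1 UMI) in control. Gabbr2, a GABA-B receptor subunit, was 1.66 and 1.61 times higher in GlastiKO and control. Grm3, a metabotropic glutamate receptor, was lower at 105 against 374 CPM and 95.03 against 417 CPM, and Grin2c, an NMDA receptor subunit, at 144 against 689 CPM and 121 against 657 CPM.

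Endothelial cells numbered 446 and 65 in GlastiKO, 388 and 20 in ECiKO, and 712 and 46 in control. With 20 or more in each of the 6 libraries, they could be tested over libraries. In the libraries numbered 1 they made up 90.8%, 97.7% and 94.4% of cells in GlastiKO, ECiKO and control. In those numbered 2 they made up 5.46%, 0.799% and 4.90%. The test took libraries of such unlike makeup as replicates, and the part of this in its calls was not tested. Of 8633 genes tested, 26 (0.301%) passed an adjusted p of 0.05 in GlastiKO against control and 20 (0.232%) in ECiKO against control (edgeR quasi-likelihood, Benjamini-Hochberg). Slc1a2, Slc1a3 and Glul passed the filter on low counts; the other 4 members did not.

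Slc1a3 was higher in GlastiKO endothelial cells, opposite to astroglia. It was at 21.3 and 89.7 CPM in GlastiKO (33 and 19 UMIs), 4.96 and 0 CPM in ECiKO (6 and 0 UMIs), and 5.97 and 0 CPM in control (15 and 0 UMIs). Both GlastiKO libraries lay above every other library. The log2 fold change against control was 2.83 ± 0.63 (SE, 2 libraries per group, edgeR adjusted p = 0.0033). Slc1a3 passed the filter on low counts only through the GlastiKO libraries, the group where it was high. The call is therefore a description. Its SE and p-value rest on a spread shared over all genes, not on the spread of Slc1a3 itself. The call was lost with DESeq2 (3.52, adjusted p = 0.99999). It was also lost in edgeR without GlastiKO replicate 1 (3.998, adjusted p = 0.996), GlastiKO replicate 2 (1.98, adjusted p = 0.311), ECiKO replicate 1 (2.97, adjusted p = 0.0602) or control replicate 1 (adjusted p = 0.998).

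The Slc1a3 UMIs were spread thinly over endothelial cells. They were in 31 of 446 and 14 of 65 cells in GlastiKO, 5 of 388 and 0 of 20 in ECiKO, and 13 of 712 and 0 of 46 in control; the 0 counts allow up to 80.4 CPM in ECiKO replicate 2 and 25.1 CPM in control replicate 2 at a limit of 3 counts, with exact upper limits of 98.8 and 30.9 CPM. With each cell thinned to 1000 UMIs the shares were 2.15% and 14.3% in GlastiKO and 0.452% in control replicate 1. In GlastiKO replicate 2, 0 of 22 choroid plexus cells held Slc1a3, at a median of 18656 UMIs, against 2885 in endothelial cells. Slc1a3 was at 74.2 CPM in the pericytes and smooth muscle cells of that library (8 of 31 cells), 73.9 CPM in neuroblasts (10 of 27) and 36.2 CPM in oligodendrocytes (245 of 602), beside 89.7 CPM in endothelial cells. The exact intervals of the pericytes (39.5 to 127 CPM) and neuroblasts (43.1 to 118 CPM) overlapped that of the endothelial cells (54.0 to 140 CPM). Of the Slc1a3-positive GlastiKO endothelial cells, 30 of 31 and 13 of 14 had no Slc1a2. No UMI of any astroglial marker was found in 23 of 31 and 12 of 14. Only 1 Slc1a3 UMI was held by 30 of 31 and 11 of 14, and cells that passed as both endothelial and astroglial had been left out. The astroglia of GlastiKO replicate 2 held 5.12 Slc1a2 UMIs per Slc1a3 UMI. The source of the endothelial Slc1a3 UMIs was not tested, nor was the part of the sort, in which the Slc1a3 product was a marker. Astroglial markers summed to 42.0 and 104 CPM in GlastiKO endothelial cells, 28.1 and 80.4 CPM in ECiKO, and 43.4 and 125 CPM in control.

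**Figure D5:**
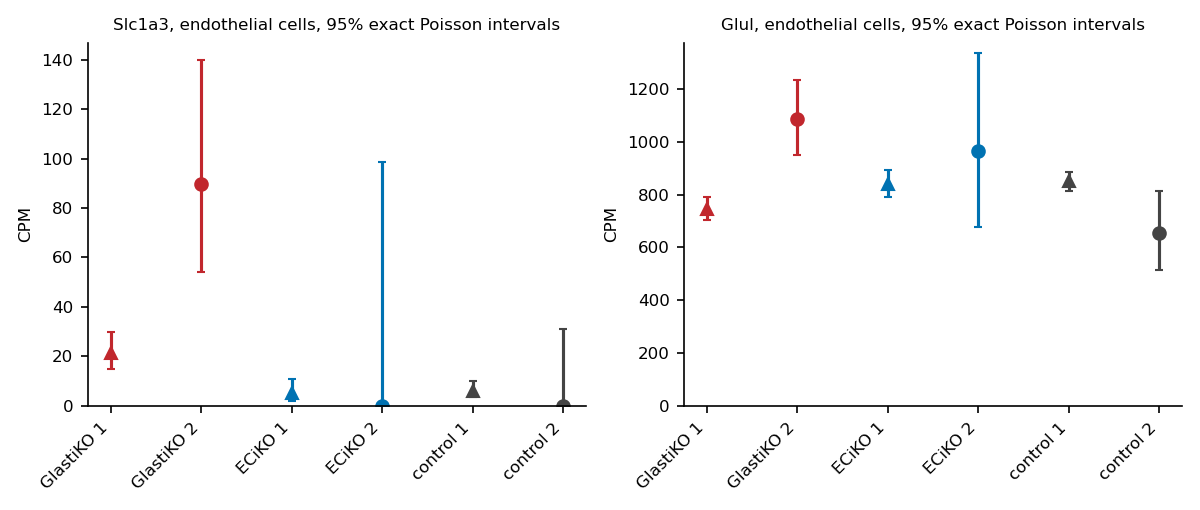
CPM of Slc1a3 (left) and Glul (right) in endothelial cells of each library, with 95% exact Poisson intervals; triangles are replicate 1 and circles replicate 2. Slc1a3 is at 21.3 and 89.7 CPM in GlastiKO and at most 5.97 CPM elsewhere, whereas Glul overlaps between groups.

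Endothelial Glul was at 747 and 1086 CPM in GlastiKO, 840 and 965 CPM in ECiKO, and 850 and 652 CPM in control. The groups overlapped, with log2 fold changes of 0.28 ± 0.27 and 0.16 ± 0.29 in GlastiKO and ECiKO (SE, edgeR adjusted p = 0.99987 and 0.99995). Slc1a2 had 3 and 4 UMIs in GlastiKO, 0 and 0 in ECiKO, and 8 and 6 in control, and neither comparison passed (edgeR adjusted p = 0.99987 and 0.99995); the 0 counts allow up to 2.48 and 80.4 CPM in ECiKO at 3 counts, with exact upper limits of 3.05 and 98.8 CPM. Of the 59 other genes, 15 were tested and 0 passed in either comparison (edgeR; smallest adjusted p = 0.99987 in GlastiKO and 0.99995 in ECiKO), with median log2 fold changes of -0.00077 and 0.11. At an unadjusted p under 0.05 the count was 0 in both, and DESeq2 called 0.

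For each member the genes with the most similar pattern were sought over 22 sums of cells (7 classes, 6 libraries, sums sharing libraries) among 8854 genes. Slc1a2 was most like Luzp2 (Pearson r = 0.982), Slc1a3 like Cry2 (0.983), Slc6a11 like Gjb6 (0.987) and Gabra2 like Igdcc4 (0.985). Slc6a9 was most like Kcnj10 (0.977), Abat like Enho (0.958) and Glul like Ank (0.928).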

How the data were processed

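Single cells from 6 libraries were profiled with 10x Genomics 3′ v3.1 chemistry. The deposited matrices hold raw UMI counts per gene and cell; the authors aligned them to mm10 with Cell Ranger 5.0.0 per the file headers and the labels' protocols, while the submitters' processing notes name Cell Ranger 2.1.1 and Seurat 4. Cells with at least 300 genes and at most 20% mitochondrial UMIs were kept, and 49 doublets called by Scrublet (scanpy 1.11.5) were left out. A class needed at least 4 UMIs and 2 of its markers, and exactly 1 class had to pass; within astroglia, at least 75% of type-marker UMIs had to be of 1 type. The members, lists and gates were chosen with earlier results of these data known, and thresholds were set after the data were seen. Members and list genes were named as all 7 members, list genes past the rule, and for likeness the genes of highest Pearson r of log2(CPM + 10) in sums of at least 20 cells. UMIs were summed per library and class; CPM ratios have exact conditional binomial intervals. Endothelial sums were tested with edgeR 4.0.16 (quasi-likelihood, TMM, filterByExpr, group only, 3 residual degrees of freedom). The prior degrees of freedom were infinite, so SEs and p-values rest on a spread shared over genes, not on each gene's own libraries. DESeq2 1.42.0 was an alternative. Other scalings, filters, gates and left-out libraries were tried as alternatives. The test was checked on simulated data. The labels call the replicates biological, without naming animals. Positions are from GENCODE M21; promoters from RefSeq matched 6 of 7 members, and Abat had none. No cell-level deposited annotation was used. Some marker and list genes are not reported here.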

Additional observations from a re-analysis of the deposited data

Results flagged for a closer look

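Slc1a3 was higher in GlastiKO than in control endothelial cells (log2 fold change 2.83) and lower in GlastiKO than in control astroglia of both types. In endothelial cells it passed the filter on low counts only through the GlastiKO libraries. The opposite directions drew attention; the difference between the classes was not tested, and astroglia had 1 library per group.

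Slc6a11 stood at 0.892 of control in GlastiKO Agt-type astroglia and at 1.30 in Lhx2-type astroglia, each interval of counting error on its own side of 1. This difference was not tested either. With each cell weighted equally the Agt-type ratio was 0.967, and with cells thinned to 1000 UMIs it was 0.983.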

How the results depend on the processing

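Slc1a3 in GlastiKO astroglia stayed below control under all 8 alternatives in each type. The ratios were 0.509 to 0.596 in Agt-type and 0.482 to 0.569 in Lhx2-type cells. This difference was part of the choice of members, and the alternatives reprocess the same libraries, so they are no independent support. Thinning gave 0.596 and 0.482 in the 2 types, and the stricter gate 0.569 in Lhx2-type cells. The Agt-type over Lhx2-type ratio of Gabra2 in control reversed to 3.34 when thinned. Endothelial calls fell to 2 in each comparison with DESeq2, and to 9 in GlastiKO and 1 in ECiKO without cells holding Plvap and Esm1; leaving out 1 library gave 4 to 34 in GlastiKO and 5 to 34 in ECiKO. Unadjusted p was under 0.05 for 162 and 130 genes. Log2 fold changes reversed for Slc1a2 in GlastiKO without GlastiKO replicate 1 (0.30) and without control replicate 2 (0.61), for Slc1a3 in ECiKO with DESeq2 (0.080) and without control replicate 1 (4.62), and for Glul in ECiKO without control replicate 2 (-0.043). The cause was not tested. Over the left-out libraries these values ran from -1.83 to 0.61 for Slc1a2 in GlastiKO, from -5.29 to 4.62 for Slc1a3 in ECiKO and from -0.043 to 0.47 for Glul in ECiKO. With the replicate number as a block, 39 genes were called in GlastiKO and 29 in ECiKO. Slc1a3 kept its call there (2.31, edgeR adjusted p = 0.0188), under the same filter, which it passed only through GlastiKO. Deviations of same-numbered libraries from their group means correlated at 0.054, 0.091 and 0.037. The libraries numbered 2 held only 20 to 65 endothelial cells, and whether same-numbered libraries shared a batch was not tested. ECiKO Agt-type cells were under 20 with at least 1000 genes or the stricter gate and gave no value.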

Other observations

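Astroglia assigned to neither type (138, 89 and 131 cells in GlastiKO, ECiKO and control replicate 2) held Slc1a3 at 1458, 2345 and 2539 CPM. The few astroglia of the libraries numbered 1 (7, 2 and 2 cells) held 26, 14 and 32 Slc1a3 UMIs, or 1404, 3424 and 3418 CPM.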
